A study of Mus musculus with 4 samples.

Results

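H19, Igf2 and the insulin-like growth factor (IGF) axis are described here through 10 genes, H19, Igf2, Igf1, Igf1r, Igf2r, Igfbp3, Igfbp4, Igfbp5, Igfbp6 and Igfbp7. They were taken by gene name from the arrays and are covered by 22 of the 41174 non-control probes, of which 21 were among the 25641 probes kept as well above background. The cells were wild type primary embryonic fibroblasts of C57BL/6 mice, and the 2 groups were cells given an siRNA against Xpo5 and cells given a negative control siRNA, with 2 arrays each. Both groups received 60 nM siRNA for 12 h, then 0.2% serum for 48 h, which arrests fibroblast growth, and then 20% serum for 24 h together with a further transfection of the same kind. Xpo5 encodes Exportin-5, which carries microRNA precursor hairpins out of the nucleus. The comparison addresses how loss of this exporter alters transcripts of fibroblasts that are re-entering the cycle.

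IGF-I and IGF-II are secreted growth factors that act through the IGF-I receptor kinase, while the IGF-II receptor takes up IGF-II and delivers it to lysosomes for degradation. IGF binding proteins hold the ligands outside the cell, and proteases that cut them release the ligands. H19 and Igf2 lie beside each other on mouse chromosome 7 and are imprinted, with H19 transcribed from the maternal copy and Igf2 from the paternal copy, and they share enhancers. H19 is a long non-coding RNA that also hosts the hairpin of miR-675, and an intron of Igf2 hosts that of miR-483.

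The sequences show which pieces of the transcripts were read. The pair of H19 probes reads separate stretches of the RNA on the minus strand, the first at chr7:149761769-149761828 and the second across chr7:149762018-149762165 (mm9, positions from the array files). The second target spans 148 bases for a 60-base probe, so its genomic target holds a gap of 88 bases.
H19 probe A_51_P142196: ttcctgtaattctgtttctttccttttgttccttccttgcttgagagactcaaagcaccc
H19 probe A_52_P571350: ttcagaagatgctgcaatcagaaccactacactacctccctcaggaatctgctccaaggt
The brightest Igf1 probe lies on the plus strand at chr10:87376418-87376477, and the Igfbp4 probe with the larger difference lies on the plus strand at chr11:98909591-98909650 (mm9).
Igf1 probe A_52_P536434: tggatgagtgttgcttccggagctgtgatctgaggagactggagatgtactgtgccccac
Igfbp4 probe A_51_P398971: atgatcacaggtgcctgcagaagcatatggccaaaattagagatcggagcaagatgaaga
The hosted microRNAs are shown because precursor hairpins are what Exportin-5 carries. Their mature sequences come from RefSeq (GRCm38.p6) and have the seed, bases 2 to 8, in capitals.
miR-675-5p: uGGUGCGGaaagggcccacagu
miR-675-3p: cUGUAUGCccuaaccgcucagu
miR-483-5p: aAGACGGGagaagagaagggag
miR-483-3p: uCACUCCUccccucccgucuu
These 4 seeds differ from one another. The H19 and Igf2 probes share a run of at most 6 bases with the hairpin of their hosted microRNA, so these probes do not cover the hairpins. Probes of different members share at most 9 bases in a row, over 212 pairs of probes.

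Xpo5 was checked first. Its brightest probe read −1.95 and −1.93 in Xpo5 siRNA cells, against 1.31 and 1.26 in control siRNA cells, as log2 signal minus that of its array's 75th percentile, the scale of all levels below. The difference was −3.23 ± 0.14 (SE, n = 2 arrays per group), which is 10.7% of the control signal. Its limma adjusted p over all 25641 kept probes was 0.0654, so even the targeted gene stood above the 0.05 threshold in this fit. On the arrays 62.4% to 65.0% of the spots were well above background and 0 were saturated, and all 15 fibroblast markers examined were among the kept probes. How precise a value can be is limited by having 4 arrays. In bulk RNA, fewer cells of a type and less RNA per cell cannot be told apart.

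By limma with Benjamini-Hochberg adjustment, 0 of the 21 member probes passed, against 0% of all kept probes. At an unadjusted p under 0.05 there were 4 member probes, all higher with Xpo5 siRNA, against 10.9% of all kept probes, 6.28% higher and 4.59% lower. The groups did not overlap for 11 of the 21 probes, 8 of them higher and 3 lower with Xpo5 siRNA, against 43.2% of all kept probes in either direction, 21.5% higher and 21.7% lower. Between arrays of the same replicate number, 18 of the 21 probes had 1 sign in both, against 69.6% of all kept probes. The median difference of the member probes was 0.22, with a range of −0.26 to 0.79, and that of all kept probes was 0.01. The median size of the difference, whatever its sign, was 0.23 for the member probes and 0.19 for all kept probes.

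**Figure D1:**
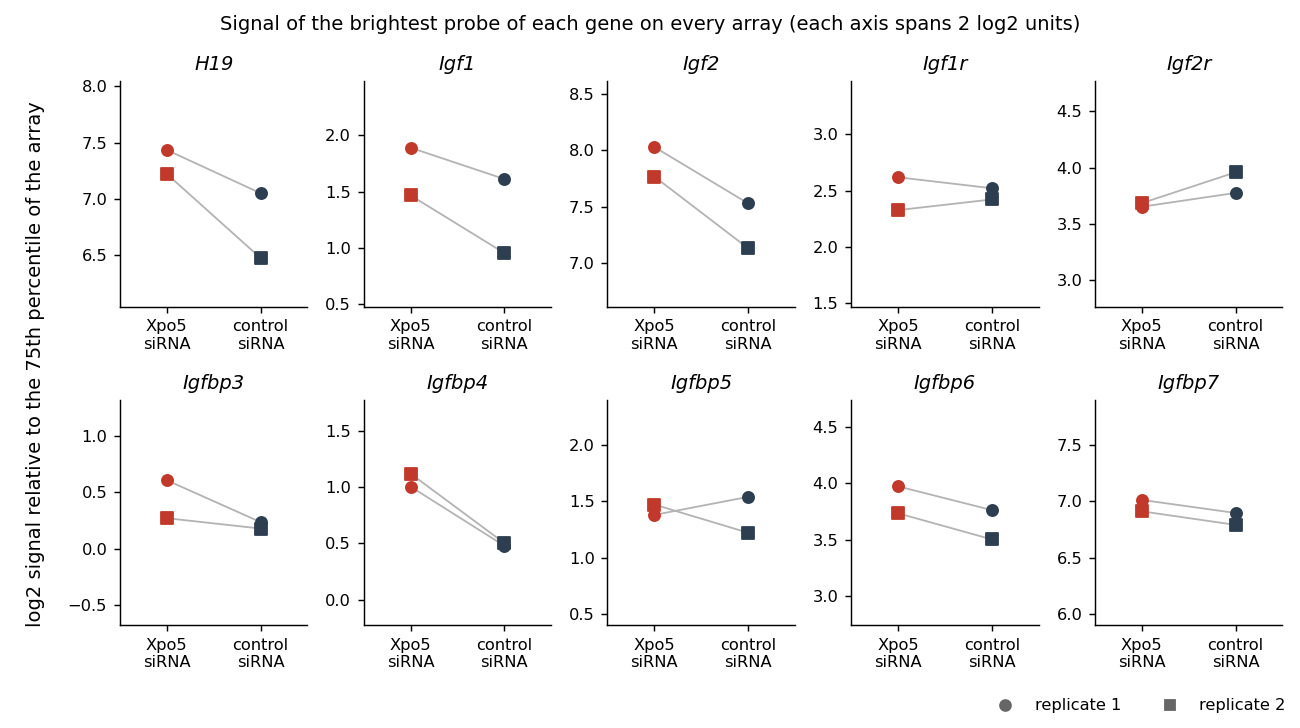
The brightest probe of each of the 10 genes, with log2 signal relative to the array's 75th percentile on the vertical axis and 1 point per array (circle, replicate 1; square, replicate 2), Xpo5 siRNA on the left and control siRNA on the right; lines join arrays of the same number. H19 and Igf2 lie higher on both Xpo5 siRNA arrays than on both control arrays, as do Igfbp3, Igfbp4 and Igfbp7, while Igf2r lies lower on both.

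H19, the non-coding RNA of the imprinted pair, was higher on both Xpo5 siRNA arrays with either probe. Probe A_51_P142196 read 7.43 and 7.22 in Xpo5 siRNA cells, against 7.05 and 6.48 in control cells. The lower control array sets much of this gap: the difference was 0.56 ± 0.24 (SE, limma adjusted p = 0.499), 0.28 without control replicate 2 and 0.85 without control replicate 1. Probe A_52_P571350 read 5.68 and 5.58 in Xpo5 siRNA cells, against 5.10 and 4.94 in control cells, and gave 0.61 ± 0.15 (95% interval 0.22 to 1.00, limma adjusted p = 0.337). That adjusted p was the lowest among the member probes, and its left-out values ran only between 0.54 and 0.69. Both probes place the Xpo5 siRNA level at about 1.5-fold of control, 1.48-fold and 1.53-fold.

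Igf2, the fetal ligand encoded beside H19, gave nearly the same size of difference. Probe A_51_P516826 (chr7:149836673-149836709, minus strand, mm9) read 8.03 and 7.77 in Xpo5 siRNA cells, against 7.53 and 7.13 in control cells. Its listed position spans 37 bases, so it covers only part of the 60-base probe. The groups did not overlap, and the difference was 0.57 ± 0.21 (SE, limma adjusted p = 0.449), 1.48-fold. Probe A_51_P516833, which reads chr7:149837115-149837174, gave 6.31 and 6.05 with Xpo5 siRNA, against 5.82 and 5.44 with control siRNA. It lay 0.55 ± 0.20 apart (limma adjusted p = 0.455), close to the 0.57 of the first probe. Both Igf2 probes were read on the same arrays, so they share the spread between those arrays. Repeat spots of the first Igf2 probe, 8 to 10 per array, had SDs of 0.044 to 0.123 within an array, smaller than the gaps between arrays of 1 group, which were 0.26 with Xpo5 siRNA and 0.40 with control siRNA.

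The differences were also read within each slide. Slide 1 held replicate 1 of Xpo5 siRNA and replicate 2 of control siRNA, and slide 2 held the other two arrays. The first H19 probe differed by 0.96 within slide 1 and by 0.17 within slide 2. The first Igf2 probe differed by 0.90 within slide 1 and by 0.24 within slide 2. These differences were therefore above 0 within both slides but several times larger within slide 1. A fit with a slide block put the limma adjusted p of the 21 member probes at 0.957 to 0.999. That fit leaves the gap between replicate numbers in its error, and the brightest Xpo5 probe reached 0.298 in it. With the replicate number as a block, the lowest limma adjusted p of the member probes was 0.104. The second H19 probe was less uneven, with 0.74 within slide 1 and 0.49 within slide 2. Each within-slide value sets arrays of different replicate numbers against each other, so an even shift of a whole slide cancels in it. The gap between the 2 within-slide values equals the gaps between replicate numbers, added over the 2 groups. For the first H19 probe, replicate 1 lay above replicate 2 by 0.21 with Xpo5 siRNA and by 0.58 with control siRNA. For the first Igf2 probe these gaps were 0.26 and 0.40. What lies behind them was not tested.

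H19 and Igf2 kept a like proportion within each array. H19 minus Igf2, each by its brightest probe, was −0.60 and −0.55 in Xpo5 siRNA cells, against −0.48 and −0.66 in control cells. The Xpo5 siRNA values lie between the control values, and the group means differ by −0.00 on the log2 scale. This ratio compares change, not abundance, since different probes do not share a scale.

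Igf1, the ligand of postnatal growth that many mesenchymal cells and macrophages also make, did not separate the groups. Its brightest probe, A_52_P536434, read 1.89 and 1.47 in Xpo5 siRNA cells, against 1.61 and 0.96 in control cells. The difference was 0.39 ± 0.29 (SE, limma adjusted p = 0.663), and the groups overlap. The probe with 10 spots per array, A_51_P147942, read 1.61 and 1.09 with Xpo5 siRNA, against 1.35 and 0.68 with control siRNA, a difference of 0.34 ± 0.31. For each of these probes replicate 1 was above replicate 2 in both groups, by 0.42 and 0.51 with Xpo5 siRNA and by 0.66 and 0.68 with control siRNA, gaps larger than that between the siRNAs. Within slide 1 the brightest probe differed by 0.93 and within slide 2 by −0.14, so its direction differs between slides. The 2 dimmer Igf1 probes, A_52_P351116 and A_52_P306327, both gave 0.15, with SEs of 0.34 and 0.31. All 4 Igf1 probes overlapped between the groups, and leaving out control replicate 2 brought all but the brightest to or below 0.

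Igf1r, the signalling receptor, was close to level by its brightest probe. Probe A_51_P474538 read 2.62 and 2.33 in Xpo5 siRNA cells, against 2.52 and 2.42 in control cells. The Xpo5 siRNA arrays lie on either side of the control arrays, and the difference was 0.00 ± 0.17 (95% interval −0.44 to 0.45, limma adjusted p = 0.998), with −0.10 under median scaling. The other probes of the gene gave −0.26 ± 0.23 (A_51_P318365), 0.13 ± 0.34 (A_52_P634111) and −0.23 ± 0.15 (A_52_P668647). Of these only A_52_P668647 had groups that did not overlap, at −1.76 and −1.77 with Xpo5 siRNA, against −1.43 and −1.64 with control siRNA. The 4 Igf1r probes thus do not share a direction.

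Igf2r, the receptor that clears IGF-II and, in the mouse, an imprinted gene expressed from the maternal copy, was lower on both Xpo5 siRNA arrays. Its only probe, A_51_P125467 (chr17:12875253-12875263, minus strand, mm9), read 3.65 and 3.69 in Xpo5 siRNA cells, against 3.78 and 3.96 in control cells. The listed position spans 11 bases, so it covers only part of the 60-base probe. The groups did not overlap, but the difference of −0.20 ± 0.15 had a 95% interval of −0.59 to 0.19 (limma adjusted p = 0.669). Within slides it was −0.31 and −0.09. It was −0.11 without control replicate 2 and −0.048 with normexp without spots marked for uneven background. Igf2 minus Igf2r, the ligand against its clearance receptor within an array, was 4.38 and 4.08 in Xpo5 siRNA cells, against 3.76 and 3.17 in control cells. These ranges do not overlap and the means differ by 0.77, of which the larger share comes from Igf2. Igf2 minus Igf1r was 5.41 and 5.44 with Xpo5 siRNA, against 5.01 and 4.71 with control siRNA, a difference of 0.57.

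**Figure D2:**
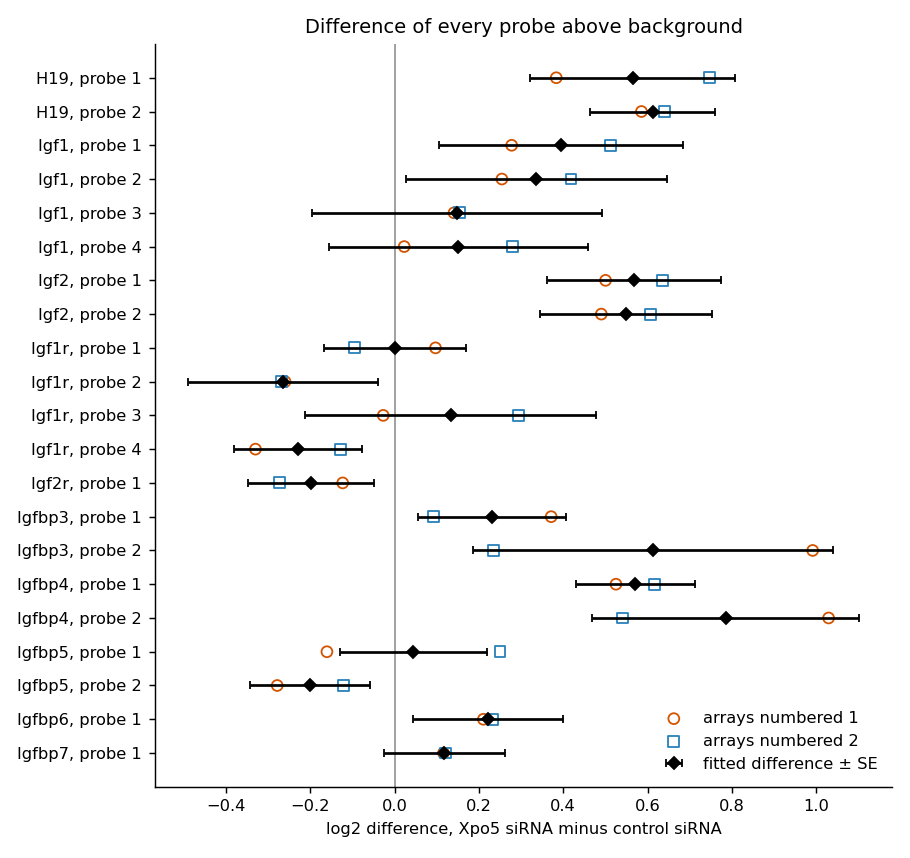
The log2 difference, Xpo5 siRNA minus control siRNA, of the 21 member probes above background, with fitted difference and SE as diamonds and bars, and the difference between arrays numbered 1 (circles) and numbered 2 (squares). H19, Igf2 and Igfbp4 probes lie between 0.55 and 0.79, and Igf1r, Igf2r and Igfbp5 probes lie between −0.26 and 0.13.

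Igfbp4, a binding protein of fibroblasts that in cell culture mostly holds IGF action back, was higher on both Xpo5 siRNA arrays with either probe, by sizes like those of H19 and Igf2. Probe A_52_P257502 (chr11:98913334-98913393, plus strand, mm9) read 1.00 and 1.12 in Xpo5 siRNA cells, against 0.48 and 0.50 in control cells. The replicates within each group lay 0.12 or less apart, and the difference was 0.57 ± 0.14 (95% interval 0.20 to 0.94, limma adjusted p = 0.341), 1.48-fold. This difference was 0.50 within slide 1 and 0.64 within slide 2. Probe A_51_P398971, which reads the stretch printed for Igfbp4, gave −0.16 and 0.16 with Xpo5 siRNA, against −1.19 and −0.38 with control siRNA. Its difference of 0.79 ± 0.32 (limma adjusted p = 0.477) was the largest among the member probes, but the control arrays lay 0.81 apart, and without control replicate 1 it was 0.38. Igfbp4 minus Igf2 within an array differed by 0.00 between the groups.

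Igfbp3, the main carrier of IGFs in serum, was brightest by probe A_52_P253179, which read 0.61 and 0.27 in Xpo5 siRNA cells, against 0.24 and 0.18 in control cells. The groups did not overlap by a narrow margin, and the difference was 0.23 ± 0.18 (limma adjusted p = 0.674). That value was 0.13 under median scaling, 0.063 without Xpo5 siRNA replicate 1 and 0.40 without Xpo5 siRNA replicate 2. The dim probe A_51_P228472 gave 0.61 ± 0.43 with overlapping groups, and 0.031 without control replicate 1 against 1.20 without control replicate 2. The third, A_52_P851352, was not well above background on any array and was not tested.

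The remaining binding proteins gave differences of 0.22 or less in size. Igfbp5, which binds matrix and hydroxyapatite as well as IGFs, read 1.38 and 1.47 in Xpo5 siRNA cells, against 1.54 and 1.22 in control cells, by probe A_52_P281702. That difference of 0.04 ± 0.17 turned to −0.06 under median scaling, and the dim probe A_51_P204153 gave −0.20 ± 0.14. Igfbp6, which prefers IGF-II, read 3.97 and 3.73 with Xpo5 siRNA, against 3.76 and 3.50 with control siRNA, and its difference of 0.22 ± 0.18 lay inside overlapping groups. Igfbp7, a related secreted protein of low IGF affinity, read 7.01 and 6.91 in Xpo5 siRNA cells, against 6.90 and 6.79 in control cells. Its groups did not overlap, with a difference of 0.12 ± 0.14 (limma adjusted p = 0.791). Under median scaling the differences of Igfbp6 and Igfbp7 were 0.12 and 0.01.

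Beyond the members, 11 of 16 other IGF axis genes had a kept probe (ligands, binding proteins, receptors and the proteases that cut binding proteins). None passed the test. Their median difference was 0.24, against 0.01 over the 13919 genes tested with 1 probe each, and the groups did not overlap for 7 higher and 2 lower genes, where 24.7% of all genes were higher and 22.9% lower without overlap. Pappa, the metalloproteinase that cuts IGFBP-4 and frees its ligand, read 2.96 and 2.98 in Xpo5 siRNA cells, against 1.91 and 1.95 in control cells. The replicates nearly coincide, and the difference was 1.03 ± 0.14 (SE, limma adjusted p = 0.315), with 1.00 within slide 1 and 1.06 within slide 2. Stc1, a stanniocalcin that inhibits this protease, read −2.56 and −2.38 with Xpo5 siRNA, against −1.91 and −2.18 with control siRNA. Its difference was −0.43 ± 0.17 (limma adjusted p = 0.477). Stc2, the other stanniocalcin of this list, was brighter and differed by −0.18 ± 0.21, with overlapping groups. Igfbp2, a binding protein with a preference for IGF-II, read 2.85 and 3.03 in Xpo5 siRNA cells, against 2.34 and 2.23 in control cells, and differed by 0.66 ± 0.15. Htra3, a secreted serine protease with an IGFBP-like domain, read 1.34 and 1.38 with Xpo5 siRNA, against 0.59 and 0.48 with control siRNA, and differed by 0.82 ± 0.14. The limma adjusted p of Htra3, Igfbp2 and Ins2, described below, lay between 0.315 and 0.331. Insr, the insulin receptor, differed by −0.10 ± 0.14.

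Downstream of the receptors, 31 of 33 genes of the adaptors and the PI3K, AKT, mTOR and FOXO relay were tested and 0 passed. Their median difference was 0.03, with 12 genes higher and 5 lower without overlap, against 24.7% higher and 22.9% lower of all genes. Pik3cb, a catalytic subunit of PI3K, read −0.84 and −0.85 with Xpo5 siRNA, against −0.30 and −0.34 with control siRNA, and differed by −0.53 ± 0.14 (limma adjusted p = 0.353). Irs1, the adaptor that the receptor phosphorylates, read 2.66 and 3.01 in Xpo5 siRNA cells, against 2.47 and 2.21 in control cells, a difference of 0.50 ± 0.20. Foxo4, a transcription factor that AKT keeps out of the nucleus, lay too near background on both control arrays to be measured. It was kept only through the Xpo5 siRNA arrays, where its mean was at least 1.73-fold higher than the floor of the control arrays, so its difference and its place among the 12 support nothing. The kinases Akt1 and Akt2 themselves differed by −0.08 and 0.17.

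Among regulators of H19 and Igf2 transcripts 11 of 13 differences lay below 0, against 6798 of 13919 over all genes. Of the 16 listed genes 0 of the 13 tested passed, the median was −0.23, and 1 gene was higher and 8 were lower without overlap, where all genes had 24.7% higher and 22.9% lower. Hmga2, an architectural chromatin protein of fetal cells, read 4.49 and 4.23 in Xpo5 siRNA cells, against 5.28 and 4.99 in control cells, and differed by −0.77 ± 0.19 (limma adjusted p = 0.334). Ctcf, the insulator protein bound at the imprinting control region between H19 and Igf2, read 1.70 and 1.42 with Xpo5 siRNA, against 2.07 and 1.89 with control siRNA, a difference of −0.42 ± 0.17. Igf2bp1, which binds Igf2 mRNA and also H19 RNA, read 1.60 and 1.49 in Xpo5 siRNA cells, against 1.92 and 1.83 in control cells, a difference of −0.33 ± 0.14. Its relatives Igf2bp3 and Igf2bp2 differed by −0.23 and −0.11. Plag1, a zinc finger factor that binds Igf2 promoters, was dim and differed by 0.59 ± 0.22. No test of these genes against H19 or Igf2 was made.

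**Figure D3:**
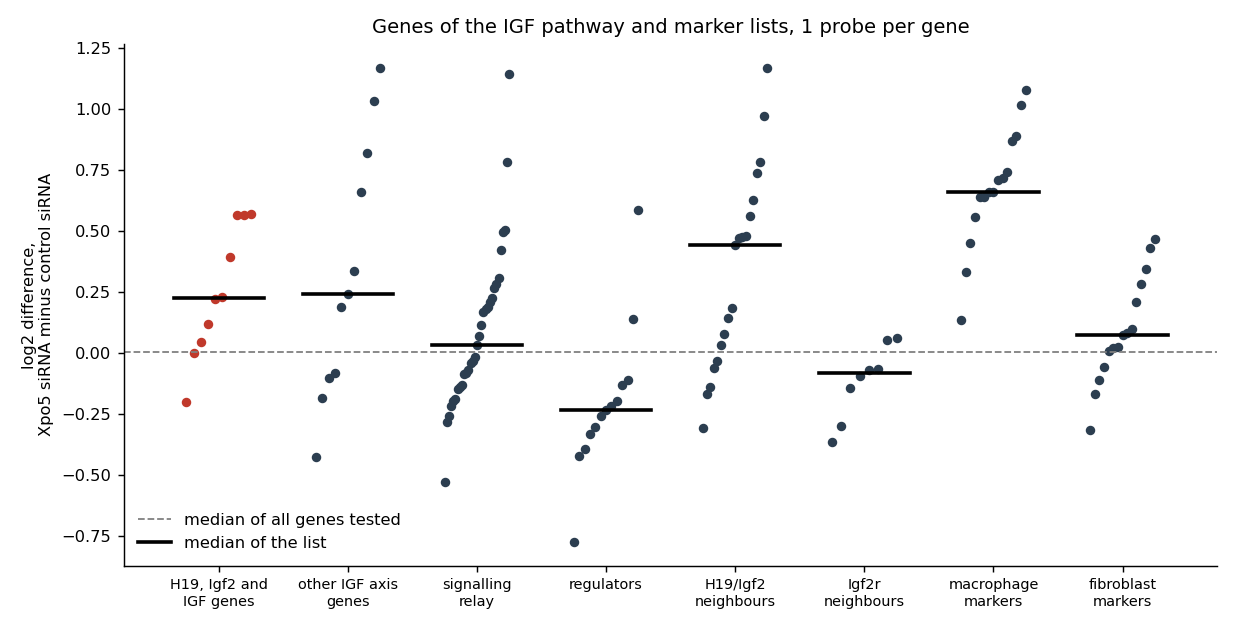
The log2 difference, Xpo5 siRNA minus control siRNA, of each gene tested (1 probe per gene, 1 point each) in 8 gene lists on the horizontal axis, with the median of the list as a bar and that of all genes as a dashed line. The list medians are 0.24 for other IGF axis genes, −0.23 for regulators, 0.44 for neighbours of H19 and Igf2, and 0.66 for macrophage markers.

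Genes around H19 and Igf2 on distal chromosome 7 were examined because the pair shares enhancers and an imprinting control region. Of 23 listed neighbours 19 were tested, 0 passed, the median difference was 0.44, and 12 were higher and 2 lower without overlap, against 24.7% and 22.9% of all genes. That median was 0.25 without control replicate 2 and 0.27 without Xpo5 siRNA replicate 1. It was −0.25 with plain normexp background correction and 0.14 with normexp without spots marked for uneven background. At an unadjusted p under 0.05 there were 8 higher and 0 lower, where 7.35% of all genes were higher and 4.55% lower. Ins2, an insulin gene 102.9 kb from the H19 probe and next to Igf2, was dim, at −3.32 and −3.02 in Xpo5 siRNA cells, against −4.47 and −4.21 in control cells. It differed by 1.17 ± 0.19, with 0.89 within slide 1 and 1.45 within slide 2. Its probe shares at most 5 bases in a row with the Igf2 probes. On the other side, Mrpl23, a mitochondrial ribosomal protein gene −35.2 kb away and the nearest tested neighbour of H19, differed by only 0.18 ± 0.15. Lsp1, a leukocyte actin-binding protein gene at −85.9 kb, differed by 0.78 ± 0.17. Tnnt3, a troponin gene at −63.5 kb, differed by 0.74 ± 0.16, and Syt8 at −136.0 kb by 0.97 ± 0.23, but both were dimmer than Ins2. Tnnt3 read −4.13 and −4.11 with Xpo5 siRNA, against −4.74 and −4.97 with control siRNA. Syt8 read −5.12 and −4.61 with Xpo5 siRNA, against −5.74 and −5.94 with control siRNA. Differences of such dim probes rest on little signal. Farther along, between 392.7 and 701.3 kb, Ascl2, Cd81, Tssc4 and Kcnq1ot1 gave −0.31 to 0.08. Kcnq1, Cdkn1c, Slc22a18 and Phlda2, between 851.0 and 925.7 kb, gave 0.44 to 0.63. Of these Kcnq1 and Phlda2 were also dim, with control means of −5.08 and −4.96, as was Ascl2 at −4.81. Nap1l4, Cars, Tnfrsf23 and Osbpl5, between 937.7 and 1113 kb, gave −0.06 to 0.14.

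**Figure D4:**
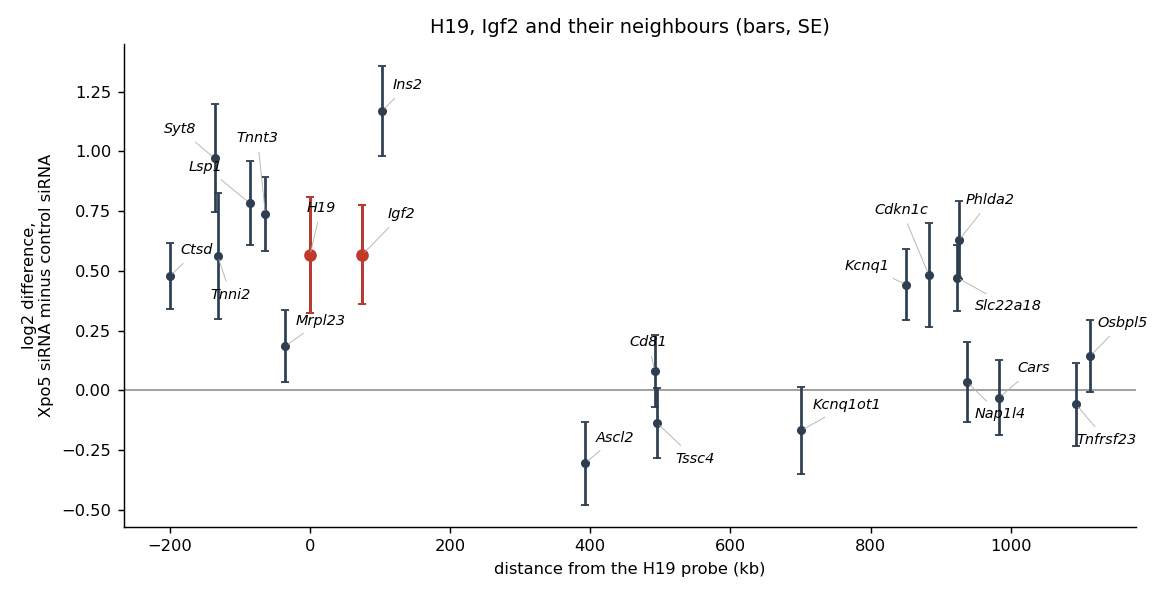
The log2 difference, Xpo5 siRNA minus control siRNA (points, with SE as bars), of H19, Igf2 and 19 neighbours against the distance of their probes from the H19 probe in kb. H19 and Igf2 stand at 0.56 and 0.57 between Mrpl23 at 0.18 and Ins2 at 1.17, and genes at 392.7 to 701.3 kb lie between −0.31 and 0.08.

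Neighbours of Igf2r on chromosome 17 were examined in the same way. Of 15 listed genes 8 were tested, 0 passed, and the median was −0.08 with 1 higher and 1 lower without overlap, against 24.7% and 22.9% of all genes. Mrpl18 differed by −0.36 ± 0.16 and Wtap by −0.30 ± 0.21. Airn, the non-coding RNA of the paternal copy that silences Igf2r in the mouse, read −2.60 and −2.82 in Xpo5 siRNA cells, against −2.61 and −2.67 in control cells, a difference of −0.07 ± 0.16.

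Markers of other cell types were read beside these values, since primary embryo cultures can hold several cell types. Of 16 macrophage markers 15 were tested and all 15 had a difference above 0, against 7121 of 13919 over all genes. Their median was 0.66, and 11 were higher without overlap, against 24.7% of all genes. Cx3cr1 was not kept. Their summed linear signal, in units of each array's 75th percentile, was 88.8 and 75.5 in Xpo5 siRNA cells, against 62.8 and 44.6 in control cells. Lyz2 made up most of that sum, at log2 levels of 5.92 and 5.73 with Xpo5 siRNA, against 5.42 and 4.95 with control siRNA. Aif1 differed by 1.08, C1qa by 0.89 and Laptm5 by 0.87. Their median difference was 1.099 within slide 1 and 0.31 within slide 2, an unevenness like that of H19, Igf2 and Igf1, and their part in those values was not tested. The 15 fibroblast markers had a median of 0.07 and a summed linear signal of 2632 and 2469 with Xpo5 siRNA, against 2316 and 2112 with control siRNA. Col1a2 and S100a4, the brightest of them, weigh most in that sum and differed by 0.28 and 0.47. Over the 15 markers, 11 differences lay above 0 and 4 below.

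Skeletal muscle, where H19 and Igf2 are also strongly expressed, had 8 of 13 markers tested, with a median of 0.19. Its defining regulators Myod1, Myog and Myf5 were not kept, nor were Ckm and Myh3. The summed muscle signal was 19.9 and 25.1 in Xpo5 siRNA cells, against 17.8 and 22.8 in control cells. Acta1 made up most of that sum, at log2 levels of 4.21 and 4.55 with Xpo5 siRNA, against 4.05 and 4.43 with control siRNA. Its difference was 0.14 ± 0.22, with overlapping groups. Endothelial markers had 4 of 8 tested, with a median of 0.40, and Pecam1 and Cdh5 not kept. Neural markers had 8 of 10 tested with a median of 0.29, and epithelial markers 5 of 8 with −0.01. Of 7 hepatocyte markers only Afp was tested, at 0.53. The part of these cell types in the values of the members was not tested.

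The genes whose 4-array pattern lay nearest to that of a member were sought among 13431 genes, by the root mean square distance between mean-centred log2 values. For H19 these were C1qtnf3 (0.019), Cttnbp2 (0.023), Slc15a3 (0.025), Meg3 (0.026) and Ccn5 (0.027). Meg3, itself an imprinted long non-coding RNA, read 6.20 and 5.93 in Xpo5 siRNA cells, against 5.78 and 5.24 in control cells, so it has the same order of arrays as H19. For Igf2 the nearest were Aknad1 (0.018), 6430548M08Rik (0.023), Klhl36 (0.024), Capn5 (0.027) and Cacna2d3 (0.028). With 4 arrays many genes can share a pattern, and these names describe likeness over the same 4 libraries only.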

How the data were processed

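Per the labels' protocols, RNA of 4 samples was Cy3-labelled and read on Agilent 1-colour arrays. Spot intensity in the deposited scanner files comes from Agilent Feature Extraction 10.5.1.1, with probe positions on mm9, per the file headers. Values of the authors' deposited table are log2 and equal the log2 processed signal shifted to a median of 5.33 on each array, for at least 99.7% of probes within 0.001.

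The log2 processed signal, without outlier spots (77 to 134 of 43379 per array), was averaged per probe, and the 75th percentile of the array was subtracted. A probe was kept if both arrays of 1 group or the other marked it well above background. Groups were compared with limma 3.58.1 (R 4.3.3, lmFit and eBayes, no block, two-sided) with Benjamini-Hochberg adjustment over 25641 probes at 0.05. Gene lists take, per gene, the brightest kept probe of that fit. Names came from RefSeq (GRCm38.p6), matched by accession for 26795 probes, symbol for 5122 and synonym for 929, with 8328 unmatched.

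Members and lists were chosen with earlier results of these data known. Named genes are Xpo5, all member probes, up to 4 genes per list with the smallest p, the nearest chromosome 7 neighbours and 5 genes nearest in pattern to H19 and to Igf2. For the relay list, 1 gene that this rule names is not reported here. Stc1, Stc2, Airn, Igf2bp2, Igf2bp3, Insr, Akt1, Akt2, Acta1 and Lyz2 were named after their values were seen. So were the chromosome 7 neighbours from Ascl2 to Osbpl5 and the marker genes not kept. Series text gives 2 independent experiments, but not whether a replicate number marks 1 experiment in both groups, so p-values reflect only how these 4 samples spread, which may be technical. The smallest exact permutation p for 2 against 2 arrays is 0.333. Alternatives are given in the closing section.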

Additional observations from a re-analysis of the deposited data

How the results depend on the processing

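By limma, 0 of the 21 member probes passed under the main setting and under each of the 16 alternatives, and at an unadjusted p under 0.05 there were 4. Over all probes, 0 passed in the main setting, against 10 with median scaling, 10 with the deposited log2 table and 3 with 1 probe per gene. There was 1 with the mean of a gene's probes, 1 with an intensity trend and 1 with normexp without spots marked for uneven background. Quantile normalization, plain normexp, either other filter and a slide block gave 0. With the replicate number as a block, 4 of all probes passed (0.0156%), Xpo5 among them (limma adjusted p = 0.0414), and 0 member probes. Deviations from the group mean of arrays with the same number correlated at 0.515 over 25629 probes, a hint from the data and not from the labels. Those of different numbers correlated at −0.515, which is the same result with its sign turned and adds nothing. The arrays of a group deviate from their mean by equal and opposite amounts, so this value was fixed by the first. With that block 9 member probes (42.9%) had an unadjusted p under 0.05, against 23.4% of all kept probes, and their lowest limma adjusted p was 0.104.

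Plain normexp (offset 50) moved the median of all probes to 0.40. Under it the difference was −0.67 for both H19 probes, −0.57 and −0.79 for Igf2, −0.53 (A_52_P536434) and −0.36 (A_51_P147942) for Igf1, and −1.03 (A_51_P474538) and 0.70 (A_52_P668647) for Igf1r. It was −0.13 for Igfbp3 (A_52_P253179), 1.43 (A_51_P204153) and −0.37 (A_52_P281702) for Igfbp5, −1.17 for Igfbp6 and −0.96 for Igfbp7, and −1.31 for Igf2r, whose sign stayed. The spots marked for uneven background numbered 0 to 34 of 43379 per array. Leaving them out of normexp returned that median to 0.03. Only Igfbp5 (A_51_P204153) among these then turned, to 0.020, and Igf2r was −0.048. Median scaling and the deposited table, which move the median of all probes to −0.09, gave −0.10 for Igf1r (A_51_P474538) and −0.061 for Igfbp5 (A_52_P281702), and the mean of a gene's probes gave −0.089 and −0.077; the cause was not tested beyond these shifts. With each array left out, values that changed sign ran from −0.0016 to 0.67 (Igf1 A_51_P147942), −0.20 to 0.51 (A_52_P306327), −0.20 to 0.49 (A_52_P351116), −0.14 to 0.15 (Igf1r A_51_P474538), −0.28 to 0.55 (A_52_P634111) and −0.11 to 0.20 (Igfbp5 A_52_P281702). H19, Igf2 and Igfbp4 probes kept their sign with each array left out, within 0.28 to 1.19. The list median of the other IGF axis genes was 0.14 with median scaling and 0.37 without control replicate 2. That of the regulators was −0.34 and −0.33, and that of the chromosome 7 neighbours 0.34 and 0.25. The chromosome 7 median was 0.14 under normexp without spots marked for uneven background and −0.25 under plain normexp. With 2 arrays a group, precision is set by the number of arrays.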
